A study of Homo sapiens with 12 samples.

Results

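The cytosolic and mitochondrial heat shock chaperones described here are 10 genes, HSP90AA1, HSP90AB1, HSPA8, HSPA1A, HSPA1B, HSPH1, DNAJB1, HSPB1, HSPD1 and HSPE1, taken by gene symbol from a table of 61806 genes. They were chosen by their levels in the lines: HSP90AA1 held 0.0993% ± 0.00222 of all counts in K1 siRNA libraries and 0.097% ± 0.0027 in K1 control libraries, and 0.903% ± 0.247 in TPC-1 siRNA libraries and 1.02% ± 0.168 in TPC-1 control libraries (SD, n = 3 each). The difference between the lines is therefore given as a description of these genes, with no test, and the siRNA effect is tested.

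RNA-seq was made from K1 and TPC-1, established cell lines of human papillary thyroid cancer labelled as wild type, 24 h after transfection of small interfering RNA (siRNA) against TRIM35 or of a negative control siRNA. The 4 groups were K1 with TRIM35 siRNA, K1 with control siRNA, TPC-1 with TRIM35 siRNA and TPC-1 with control siRNA, with 3 libraries each and 12 in all. TRIM35 is a tripartite motif protein of the ubiquitin ligase kind, and the series names proliferation, metastasis and glycolysis as its subject. Every library received an siRNA, each line is a single cell population, and the title of the third TPC-1 control library names TPC-3 where its other labels name TPC-1.

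Heat shock chaperones bind unfolded or partly folded proteins and use cycles of ATP binding, or passive holding, to keep them from aggregating until they fold. In the cytosol, J-domain proteins such as DNAJB1 hand clients to the HSP70 proteins, nucleotide exchange factors such as HSPH1 release them, and HSP90 takes over the late folding of kinases and steroid receptors; in the mitochondrial matrix, HSPD1 forms a barrel that HSPE1 closes as a lid. The stress-induced members are transcribed by the heat shock factor HSF1, which binds repeats of the heat shock element, inverted GAA and TTC blocks set 2 bases apart, while HSPA8 and HSP90AB1 are known as constitutive family members.

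TRIM35 mRNA was low in all groups. It measured 1.2, 1.49 and 1.53 FPKM in K1 siRNA libraries, against 1.51, 1.85 and 1.47 FPKM in K1 control libraries, and 2.34, 2.56 and 2.58 FPKM in TPC-1 siRNA libraries, against 2.86, 2.91 and 3.06 FPKM in TPC-1 control libraries. FPKM is the count scaled to the exonic size of the gene and to the library total. The groups overlapped in K1 and not in TPC-1, and the log2 fold change of TRIM35 was -0.19 (SE 0.17) in K1 and -0.24 (SE 0.16) in TPC-1, neither of which passed edgeR's quasi-likelihood test (adjusted p = 1 each). Library totals ran from 16705044 to 22928861 counts. Among thyroid markers, PAX8, FOXE1 and HHEX reached 1 FPKM in each line, whereas TG, TSHR and NKX2-1 stayed at or below 0.19 FPKM in K1 and 0.03 FPKM in TPC-1; 4 of 6 epithelial markers reached 1 FPKM in K1 and 3 of 6 in TPC-1. Of 11 markers of leukocytes, endothelium and fibroblasts, 0 reached 1 FPKM in K1 and 1 in TPC-1 (PDGFRB), and their summed level was 1.55 to 1.99 FPKM in K1 and 2.02 to 2.6 FPKM in TPC-1.

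The upstream sequence of the genes was searched for the heat shock element, which does not depend on the levels in the lines. The members were picked by name as heat shock chaperones, several of them known to be induced through this element. The shares below therefore describe the chosen genes and are no test. All 10 genes matched the RefSeq promoter table (GRCh38.p14), and the 250 bases before each listed start were read on both strands. A pair of blocks was GAANNTTC or TTCNNGAA, where N is any base. A triplet was either pair followed, after 2 further bases, by a repeat of its first block, so that every triplet holds overlapping pairs. A pair was present in 8 of 10 members and in 14% of 27305 genes with a window, and a triplet in 4 of 10 members (HSP90AA1, HSP90AB1, HSPA8 and HSPD1) and in 0.557% of those genes. Counted by window, since some genes have several starts, 8 of 16 windows of the members and 11.6% of 35116 windows held a pair, and 4 of 16 windows of the members and 0.441% of all windows held a triplet. HSPE1 and HSPH1 had no match in their window. For HSPE1 this depends on the length of the window, which began at 197500129. The HSPD1 stretch printed below ends at 197500090, outside that window and upstream of the listed HSPE1 start at 197500379. The triplets are printed first because few other genes hold one, with the matched blocks in capitals. Each printed stretch is part of its window and ends where the annotation places an untranslated exon. Where such an exon lies over or near the match, the stretch is cut to 30 bases around the match.
HSP90AA1 (chr14:102087104-102087133, minus strand): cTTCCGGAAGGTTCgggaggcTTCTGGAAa
HSP90AB1 (chr6:44247693-44247865, plus strand): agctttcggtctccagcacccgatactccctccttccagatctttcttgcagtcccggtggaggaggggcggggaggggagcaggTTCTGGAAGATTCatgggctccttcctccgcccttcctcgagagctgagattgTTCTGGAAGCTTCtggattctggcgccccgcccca
HSPA8 (chr11:123062345-123062374, minus strand): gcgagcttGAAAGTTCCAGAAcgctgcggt
HSPA8 (chr11:123062170-123062199, minus strand): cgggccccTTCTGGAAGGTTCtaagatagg
HSPD1 (chr2:197500061-197500090, minus strand): gcattTTCTGGAAAGTTCTGGAAccgagcg
The HSP90AA1 stretch lies from 89 to 60 bases before the start at 102087044, and its other listed start, at 102139749, had no match. In HSPA8 the matches fell at both ends of the window, and in HSPD1 the match began 245 bases before the start at 197499840, where the annotation has HSPD1 and HSPE1 overlapping on opposite strands.

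The stress-inducible HSP70 copies HSPA1A and HSPA1B are shown next because their upstream windows are near copies while their levels differ. The starts of these neighbours lie 12195 bases apart on chromosome 6, and their 250-base windows matched in 235 of 251 alignment columns (93.6%). Each window held a single pair and no triplet, and capitals mark the pair. The printed stretches, of 171 bases for HSPA1A and 247 bases for HSPA1B, are the parts of the windows upstream of annotated untranslated exons.
HSPA1A (chr6:31815293-31815463, plus strand): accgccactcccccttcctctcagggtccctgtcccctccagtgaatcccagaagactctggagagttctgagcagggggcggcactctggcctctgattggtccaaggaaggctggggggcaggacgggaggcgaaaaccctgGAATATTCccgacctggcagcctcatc
HSPA1B (chr6:31827488-31827734, plus strand): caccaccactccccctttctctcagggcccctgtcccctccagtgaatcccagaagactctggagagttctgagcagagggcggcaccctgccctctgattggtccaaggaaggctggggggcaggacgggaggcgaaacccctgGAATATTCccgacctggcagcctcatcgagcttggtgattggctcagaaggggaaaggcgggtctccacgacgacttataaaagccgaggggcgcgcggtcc
These letters describe the reference genome and were not read from the cell lines.

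HSP90AA1, the stress-inducible cytosolic HSP90 (ENSG00000080824; chromosome 14, 102080742 to 102139699, minus strand, hg38, as are all coordinates below unless stated), was the member with the highest level in TPC-1. In K1, HSP90AA1 was at 195, 190.3 and 199 FPKM in the siRNA libraries, against 193, 184 and 194 FPKM in the control libraries. In TPC-1, HSP90AA1 was at 1242, 1878 and 2193 FPKM in the siRNA libraries, against 1626, 2129.5 and 2247 FPKM in the control libraries. The 6 K1 libraries lay close together and all 6 TPC-1 libraries lay above them, with library 1 lowest in both TPC-1 groups and the siRNA and control libraries overlapping in each line. The control libraries gave a log2 fold change, K1 over TPC-1, of -3.49 (SE 0.23), a level 11.3-fold lower in K1. Since these are bulk RNA samples, less RNA per cell and fewer cells with the RNA cannot be told apart here or in any comparison below. With TRIM35 siRNA, the log2 fold change was 0.04 (SE 0.21) in K1 and -0.17 (SE 0.21) in TPC-1, with 95% intervals of -0.40 to 0.48 and -0.61 to 0.27, and neither passed the test (edgeR, adjusted p = 1).

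HSP90AB1, the constitutive cytosolic HSP90 (ENSG00000096384; chromosome 6, 44246166 to 44253888, plus strand), was the highest member in K1. In K1, HSP90AB1 was at 327, 319 and 311 FPKM in the siRNA libraries, against 332, 316 and 326 FPKM in the control libraries. In TPC-1, HSP90AB1 was at 499, 644 and 908 FPKM in the siRNA libraries, against 574, 846 and 900.2 FPKM in the control libraries. All TPC-1 libraries were above all K1 libraries, again with library 1 lowest in both TPC-1 groups. K1 was 2.55-fold lower than TPC-1 in the control libraries (log2 fold change -1.35 (SE 0.21)), a smaller gap than for HSP90AA1. The order of the HSP90 genes was thereby opposite in the lines: the FPKM ratio of HSP90AA1 to HSP90AB1 lay between 0.596 and 0.64 in K1 siRNA libraries and between 0.579 and 0.595 in K1 control libraries, and between 2.42 and 2.92 in TPC-1 siRNA libraries and between 2.5 and 2.83 in TPC-1 control libraries. The siRNA effect on HSP90AB1 was -0.02 (SE 0.21) in K1 and -0.18 (SE 0.21) in TPC-1 on the log2 scale (edgeR, adjusted p = 1 each).

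Reads from HSP90 pseudogenes and from overlapping genes could enter these values. HSP90AA2P, a processed copy of HSP90AA1, had 0.93 to 2.12 FPKM in K1 and 7.19 to 22.9 FPKM in TPC-1, and 3.34% of its 100-base stretches also occur in the HSP90AA1 transcript. HSP90AB3P had 1.98% of its stretches in HSP90AB1. HSP90AA1 overlaps WDR20 on the opposite strand, and the strandedness of the libraries is not given in the sources used here; WDR20 held 436 to 667 counts per library.

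HSPA8, the constitutive cytosolic HSP70 also known as HSC70 (ENSG00000109971; chromosome 11, 123057489 to 123063230, minus strand), varied more between TPC-1 libraries than any other member. In K1, HSPA8 was at 214, 200.2 and 193 FPKM in the siRNA libraries, against 184, 172 and 194 FPKM in the control libraries. In TPC-1, HSPA8 was at 281, 554 and 803 FPKM in the siRNA libraries, against 399, 809.9 and 877 FPKM in the control libraries. Library 1 was far below libraries 2 and 3 in both TPC-1 groups, and it was still above all 6 K1 libraries. K1 was 4.07-fold lower than TPC-1 in the control libraries (log2 fold change -2.02 (SE 0.32)). In K1 the siRNA libraries overlapped the control libraries in FPKM, whereas after TMM scaling, edgeR's scaling to a common reference, all 3 lay above the controls; 5.07% of the 17447 tested genes had such separate libraries in K1, in either direction. In TPC-1, 0 of 10 members had separate siRNA and control libraries, against 5.49% of tested genes. The siRNA effect was 0.15 (SE 0.31) in K1 and -0.35 (SE 0.31) in TPC-1 on the log2 scale, and the TPC-1 interval of -1.01 to 0.32 was the widest among the members. The fit shared 1 spread per gene over all 12 libraries, so the K1 SE also carries the TPC-1 spread. Within groups, HSPA8 ranged 1.07-fold and 1.12-fold in K1 siRNA and control libraries, against 2.94-fold and 2.25-fold in TPC-1. The K1 effect minus the TPC-1 effect was 0.49 (SE 0.44) with an interval of -0.45 to 1.43, and none of the 3 values passed the test (edgeR, adjusted p = 1 each). Without the first TPC-1 siRNA library the TPC-1 value was 0.00, and without the third it was -0.71.

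HSPA1A (ENSG00000204389; chromosome 6, 31815543 to 31817946, plus strand) was the member that was higher in K1. In K1, HSPA1A was at 3.2, 3.23 and 3.19 FPKM in the siRNA libraries, against 3.14, 3.74 and 3.44 FPKM in the control libraries. In TPC-1, HSPA1A was at 0.27, 0.18 and 0.3 FPKM in the siRNA libraries, against 0.2, 0.3 and 0.23 FPKM in the control libraries. It stayed below 4 FPKM everywhere, and every K1 library was above every TPC-1 library. The TPC-1 values rest on 9 to 16 counts per library and the K1 values on 129 to 202. In the control libraries K1 was 13.1-fold higher (log2 fold change 3.71 (SE 0.24)). The siRNA effect was -0.09 (SE 0.18) in K1 and 0.03 (SE 0.30) in TPC-1 (log2, edgeR, adjusted p = 1 each).

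HSPA1B (ENSG00000204388; chromosome 6, 31827738 to 31830254, plus strand), which encodes the same HSP70 protein, did not follow HSPA1A. In K1, HSPA1B was at 6.69, 6.08 and 4.66 FPKM in the siRNA libraries, against 5.58, 5.83 and 6.3 FPKM in the control libraries. In TPC-1, HSPA1B was at 7.41, 6.59 and 6.37 FPKM in the siRNA libraries, against 7.55, 6.02 and 5.87 FPKM in the control libraries. The K1 and TPC-1 libraries overlapped, which held for no other member. The log2 fold change of K1 over TPC-1 was -0.23 (SE 0.14) in the control libraries, and with TRIM35 siRNA it was -0.03 (SE 0.14) in K1 and 0.07 (SE 0.14) in TPC-1 (edgeR, adjusted p = 1 for both siRNA effects).

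HSPA1A and HSPA1B are near-identical, so each value is uncertain where the counting, whose tool is not given in the sources used here, split or dropped shared reads: 69.9% of the 100-base stretches of the HSPA1A transcript occur in that of HSPA1B, and 68.8% the other way. HSPA1A made up 34.9% ± 4.21 of the counts of both genes in K1 siRNA libraries and 35.7% ± 1.98 in K1 control libraries, and 3.39% ± 0.843 in TPC-1 siRNA libraries and 3.55% ± 1.03 in TPC-1 control libraries (SD, n = 3 each). The lowest K1 library had 31.4% (95% Wilson interval 27.1 to 36%, counting error only) and the highest TPC-1 library 4.56% (2.68 to 7.65%). With the counts of both genes summed to 1 feature, the log2 fold change of K1 over TPC-1 was 0.36, the opposite sign to HSPA1B alone. The neighbouring HSPA1L, an HSP70 gene best known from testis and chosen after its value was seen, had 1.69 to 2.06 FPKM in K1 and 0.02 to 0.18 FPKM in TPC-1, and it shares no 100-base stretch with HSPA1A.

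**Figure D1:**
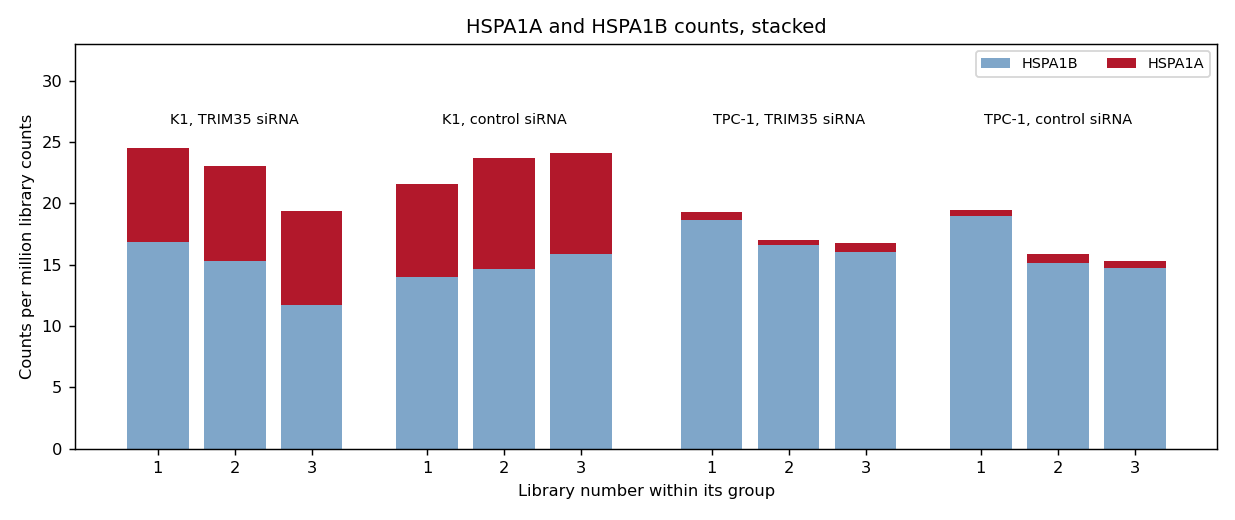
Stacked bars give the counts of HSPA1B (blue) and HSPA1A (red) as CPM, counts scaled to the library total (y axis) in each library (x axis, numbered within its group), with K1 siRNA, K1 control, TPC-1 siRNA and TPC-1 control from left to right. The red segment makes up 31.4 to 39.6% of each K1 bar and 2.5 to 4.56% of each TPC-1 bar, while the blue segments are of like height in both lines.

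HSPH1, an HSP110 protein that exchanges the nucleotide of HSP70 and can hold unfolded proteins (ENSG00000120694; chromosome 13, 31134973 to 31162388, minus strand), differed little between groups. In K1, HSPH1 was at 34.5, 32.2 and 34.1 FPKM in the siRNA libraries, against 32, 32.3 and 33.9 FPKM in the control libraries. In TPC-1, HSPH1 was at 36.8, 42.4 and 39.4 FPKM in the siRNA libraries, against 44, 45.5 and 41.7 FPKM in the control libraries. All K1 libraries were below all TPC-1 libraries by a small margin. The control libraries gave a log2 fold change, K1 over TPC-1, of -0.52 (SE 0.12), and the siRNA effect was 0.04 (SE 0.12) in K1 and -0.14 (SE 0.12) in TPC-1 (edgeR, adjusted p = 1 each).

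DNAJB1, the J-domain protein HSP40 that stimulates the ATPase of HSP70 (ENSG00000132002; chromosome 19, 14514769 to 14560391, minus strand), was alike in this. In K1, DNAJB1 was at 10.3, 10.1 and 11 FPKM in the siRNA libraries, against 11.1, 9.4 and 9.28 FPKM in the control libraries. In TPC-1, DNAJB1 was at 11.9, 12.7 and 13.7 FPKM in the siRNA libraries, against 12.3, 13.4 and 12.4 FPKM in the control libraries. The lines did not overlap and the siRNA and control libraries of each line did. The log2 fold change of K1 over TPC-1 was -0.45 (SE 0.13) in the control libraries, and the siRNA effect was 0.08 (SE 0.13) in K1 and 0.01 (SE 0.13) in TPC-1 (edgeR, adjusted p = 1 each). DNAJB1 overlaps TECR, a lipid enzyme gene on the opposite strand that held 596 to 1175 counts per library.

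HSPB1, the small heat shock protein HSP27 that holds unfolded proteins without ATP (ENSG00000106211; chromosome 7, 76302673 to 76304295, plus strand), had the second largest fold lower in K1. In K1, HSPB1 was at 8.27, 7.77 and 11.7 FPKM in the siRNA libraries, against 10.8, 8.39 and 7.08 FPKM in the control libraries. In TPC-1, HSPB1 was at 65.5, 55.4 and 49.5 FPKM in the siRNA libraries, against 55.6, 53.4 and 47.9 FPKM in the control libraries. The lowest TPC-1 library stood well above the highest K1 library. K1 was 6.33-fold lower in the control libraries (log2 fold change -2.66 (SE 0.21)). In K1 the siRNA and control libraries each spread widely, with siRNA library 3 and control library 1 high, and the siRNA effect was 0.08 (SE 0.20) in K1 and 0.12 (SE 0.19) in TPC-1 (edgeR, adjusted p = 1 each).

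HSPD1, the mitochondrial chaperonin HSP60 (ENSG00000144381; chromosome 2, 197486584 to 197516737, minus strand), was lower in every K1 library than in any TPC-1 library. In K1, HSPD1 was at 69, 72.7 and 90.2 FPKM in the siRNA libraries, against 88.4, 81.1 and 74 FPKM in the control libraries. In TPC-1, HSPD1 was at 177, 217 and 184 FPKM in the siRNA libraries, against 217, 209 and 191 FPKM in the control libraries. K1 was 2.7-fold lower in the control libraries (log2 fold change -1.44 (SE 0.17)). The siRNA effect was -0.06 (SE 0.17) in K1 and -0.09 (SE 0.17) in TPC-1 (edgeR, adjusted p = 1 each).

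HSPE1, its co-chaperonin HSP10 (ENSG00000115541; chromosome 2, 197500140 to 197503449, plus strand), is transcribed away from HSPD1 on the other strand and differed between the lines by a like amount. In K1, HSPE1 was at 38.5, 44.9 and 69.3 FPKM in the siRNA libraries, against 65.1, 55.4 and 45.5 FPKM in the control libraries. In TPC-1, HSPE1 was at 153, 159 and 98.3 FPKM in the siRNA libraries, against 167, 126 and 102 FPKM in the control libraries. The K1 libraries were below the TPC-1 libraries, and the libraries within a group spread more than those of HSPD1. K1 was 2.52-fold lower in the control libraries (log2 fold change -1.34 (SE 0.26)), and the siRNA effect was -0.10 (SE 0.26) in K1 and 0.06 (SE 0.26) in TPC-1 (edgeR, adjusted p = 1 each). The FPKM ratio of HSPD1 to HSPE1 lay between 1.3 and 1.79 in K1 siRNA libraries and between 1.36 and 1.62 in K1 control libraries, and between 1.16 and 1.87 in TPC-1 siRNA libraries and between 1.3 and 1.88 in TPC-1 control libraries, so it overlapped between the lines. HSPD1 overlaps HSPE1 and MOB4, which lie on the opposite strand, so reads there cannot be told apart without stranded counting. The pseudogene HSPD1P1 shared 5.16% of its 100-base stretches with HSPD1.

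**Figure D2:**
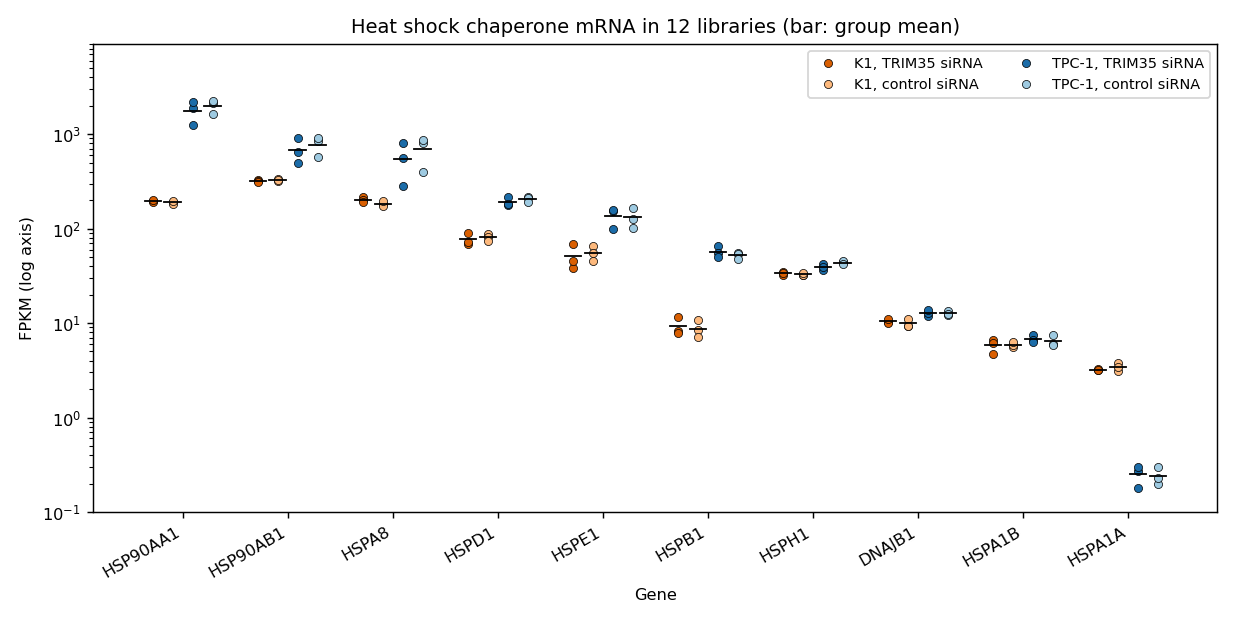
Points give the FPKM (y axis, log scale) of each member (x axis, ordered by its TPC-1 median) in single libraries, with K1 siRNA, K1 control, TPC-1 siRNA and TPC-1 control from left to right within a gene and a bar at each group mean. HSP90AA1 lies between 184 and 199 FPKM in K1 and between 1242 and 2247 FPKM in TPC-1, HSPA1A is the gene whose K1 points are above its TPC-1 points, and siRNA and control points of one line lie beside each other.

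Per exonic length, the order of the members differed between the lines. In K1, HSP90AB1 led, HSPA8 and HSP90AA1 followed with overlapping libraries, then HSPD1 and HSPE1, also overlapping, then HSPH1, then DNAJB1 and HSPB1, overlapping, and last HSPA1B and HSPA1A. In TPC-1, HSP90AA1 led, HSP90AB1 and HSPA8 overlapped behind it, and HSPD1, HSPE1, HSPB1, HSPH1, DNAJB1, HSPA1B and HSPA1A followed with no overlap between neighbours. All 10 together held 0.401% ± 0.00964 of library counts in K1 siRNA libraries and 0.394% ± 0.0119 in K1 control libraries, and 1.6% ± 0.433 in TPC-1 siRNA libraries and 1.83% ± 0.33 in TPC-1 control libraries (SD, n = 3 each).

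Across the control libraries, 9 of 10 members were lower in K1 than in TPC-1 and 1 was higher. The median log2 fold change of the members was -1.34, and that of all 17447 tested genes was 0.06; all 10 members passed the filter on low counts. A fold of 2 or more was seen for 7 members, against 45.4% of tested genes: 6 were lower in K1, against 18.0%, and 1 was higher, against 27.4%. Over all 12 libraries, the lines did not overlap for 9 members, against 59.9% of tested genes: 8 were lower in each K1 library than in each TPC-1 library, against 28.6%, and 1 was higher, against 31.2%. These shares describe how the chosen genes lie, since their levels in the lines were used to choose them. Genes that mark dividing cells moved the same way: 11 of 11 proliferation markers were lower in K1 (median log2 fold change -2.56; edgeR, each at an adjusted p under 0.05), with a summed level of 195 to 235 FPKM in K1 and 846 to 898 FPKM in TPC-1, and their part in the chaperone levels was not tested.

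With TRIM35 siRNA, 0 of 10 members passed the test in K1, in TPC-1, averaged over both lines or in the difference between the lines, and 0.0% of all tested genes did so in each. In edgeR as described, 0 members had an unadjusted p under 0.05 in any of these, against 0.78% of tested genes in K1, 1.93% in TPC-1, 1.59% averaged and 1.73% in the difference. DESeq2 and limma on log2(FPKM + 0.1) also called 0 members and gave 0 members an unadjusted p under 0.05. Without the filter on low counts edgeR called 0 members, and HSPA8 had an unadjusted p of 0.042 in TPC-1 (log2 fold change -0.32, SE 0.16) and of 0.0408 in the difference (0.46, SE 0.23), with an adjusted p of 1 each. The effects of the members ran from -0.10 to 0.15 on the log2 scale in K1, with 5 above 0 and 5 below (median 0.01; median of all genes 0.00), and from -0.35 to 0.12 in TPC-1, with 5 above and 5 below (median -0.04; median of all genes 0). The 95% interval lay within 2-fold in both directions for 10 of 10 members in K1, as for 76.4% of tested genes, and for 9 of 10 in TPC-1, as for 71.3%, with HSPA8 as the exception. Each interval holds the changes that are compatible with these libraries, and these include changes of either sign.

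**Figure D3:**
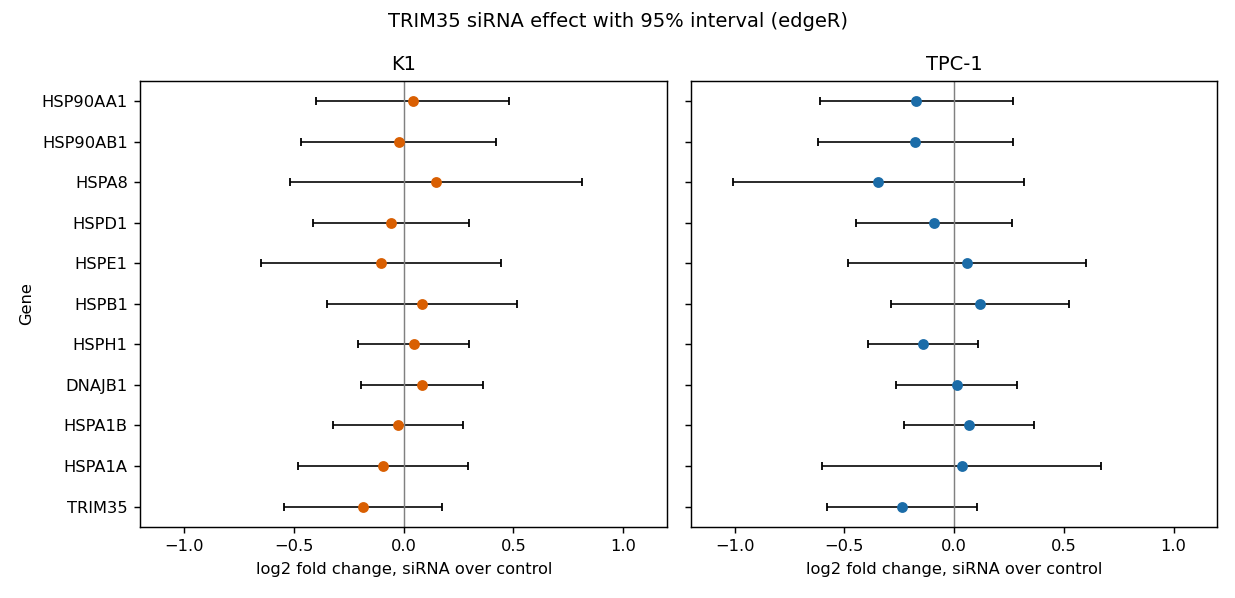
Points give the log2 fold change of TRIM35 siRNA over control siRNA (x axis) for the 10 members and TRIM35 (y axis) in K1 (left panel) and TPC-1 (right panel), with 95% intervals derived from edgeR's F test. Every interval includes 0, and that of HSPA8 in TPC-1 is the widest among the members, from -1.01 to 0.32.

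Libraries of the same group differed more than the siRNA groups did for several members, and these were not the same members in both lines. Scaled by TMM, the highest TPC-1 library exceeded the lowest 2.94-fold in the siRNA group and 2.25-fold in the control group for HSPA8, 1.87-fold and 1.61-fold for HSP90AB1, and 1.82-fold and 1.42-fold for HSP90AA1. A range past 2-fold was found in 3.16% of the tested genes with a mean of at least 10 FPKM in the TPC-1 siRNA group and in 1.61% of them in the TPC-1 control group. In K1 the HSPA8 range was 1.07-fold in the siRNA group and 1.12-fold in the control group, and HSP90AA1 and HSP90AB1 were within 1.16-fold. The widest K1 ranges were 2.02-fold for HSPE1 in the siRNA group and 1.65-fold for HSPB1 in the control group.

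In TPC-1, library 1 was the lowest and library 3 the highest in both groups for HSP90AA1, HSP90AB1 and HSPA8, and library 3 was the lowest and library 1 the highest in both groups for HSPB1 and HSPA1B. The same order in both groups was thus seen for 5 of 10 members in TPC-1, against 36.6% of tested genes and 50.4% of those with at least 10 FPKM, and for 0 of 10 in K1, against 7.71% and 4.46%. The share of counts from mitochondrial genes was 4.65, 3.16 and 2.19% in TPC-1 siRNA libraries 1 to 3 and 3.73, 2.74 and 2.29% in control libraries 1 to 3, so the library with the lowest HSPA8 had the highest share in each group. In K1, after TMM scaling, HSPE1, HSPB1, HSPD1, DNAJB1, HSPH1, HSP90AA1, HSP90AB1 and HSPA8 were highest in siRNA library 3 and control library 1. The exceptions were HSPA1A, highest in control library 2, and HSPA1B, highest in siRNA library 1 and control library 3. This order depended on the scaling. By FPKM, only HSPE1, HSPB1, HSPD1 and DNAJB1 were highest in both K1 siRNA library 3 and K1 control library 1. By the same measure HSPA8 and HSP90AB1 were lowest in siRNA library 3 (193 and 311 FPKM), and HSPH1 was highest in siRNA library 1. HSP90AA1, HSPA8 and HSPH1 were highest in control library 3. The share of counts from ribosomal protein genes was highest in K1 siRNA library 3 and K1 control library 1. It was 4.27, 4.94 and 6.66% in K1 siRNA libraries and 6.48, 5.5 and 4.53% in K1 control libraries. The part of these shares in the chaperone values was not tested.

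**Figure D4:**
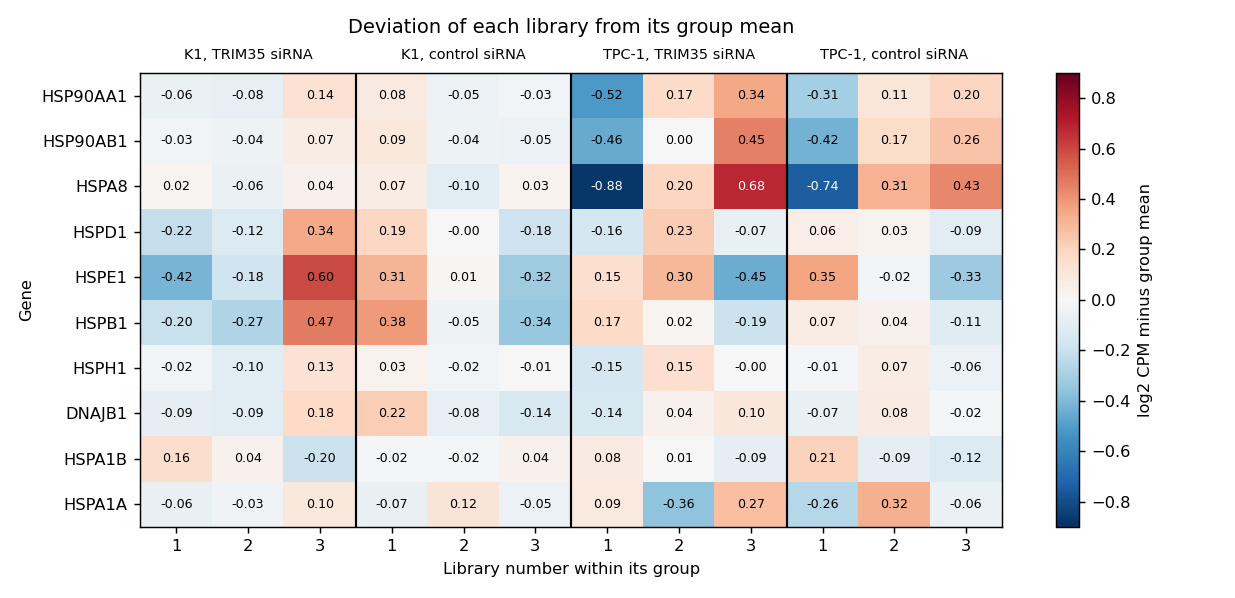
Colours and numbers give the log2 CPM of each member (rows) in each library (columns, numbered within K1 siRNA, K1 control, TPC-1 siRNA and TPC-1 control, from left to right) minus its group mean. HSPA8 runs from -0.88 to 0.68 in the TPC-1 siRNA group and from -0.74 to 0.43 in the TPC-1 control group, and HSPE1 is at 0.60 in K1 siRNA library 3 and at 0.31 in K1 control library 1.

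The other genes of the chaperone network were taken from 9 lists with 141 genes, of which 134 were tested. Between the control lines, 22 of these were higher and 59 lower in K1 (edgeR, adjusted p under 0.05), 81 in all; of all tested genes 35.8% were higher and 32.1% lower, 67.9% in all. For the list genes the median log2 fold change was -0.33, against 0.06 over all genes. The lists differed in direction, as described next.

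HSP90 paralogs and cochaperones were mostly lower in K1: 12 of 16 were lower and 1 was higher, with a median of -0.69. CHORDC1, an HSP90-binding zinc protein, had 8.57 ± 0.487 FPKM in K1 and 26.2 ± 3.42 FPKM in TPC-1 control libraries (log2 fold change -1.71, SE 0.13, edgeR adjusted p = 1.24e-08). PTGES3, the p23 cochaperone that stabilises the closed HSP90, had 104.6 ± 6.3 FPKM in K1 and 260.1 ± 12.5 FPKM in TPC-1 (log2 fold change -1.41, SE 0.15, edgeR adjusted p = 8.41e-07). RPAP3, a scaffold of the R2TP complex, was lower by the same test at a log2 fold change of -1.19. FKBP5, an HSP90 immunophilin chosen after its value was seen, was lower at -3.84.

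Of 23 tested genes among the other HSP70 proteins and their exchange factors, 4 were higher and 11 lower in K1 (median -0.34). BAG2, which inhibits the ubiquitin ligase CHIP, had 2.42 ± 0.34 FPKM in K1 and 17.6 ± 2.02 FPKM in TPC-1 (log2 fold change -2.95, SE 0.16), and HSPA4L, an HSP110 paralog, had 2.12 ± 0.49 FPKM in K1 and 14 ± 1 FPKM in TPC-1 (log2 fold change -2.83, SE 0.16). HSPA14, an HSP70 of the ribosome-associated complex, was also lower, at -1.21. The low-level paralog HSPA2, chosen after its value was seen, was higher in K1 at a log2 fold change of 3.98 (SE 0.31, edgeR adjusted p = 1.37e-08), the direction of HSPA1A. HSPA5, the HSP70 of the endoplasmic reticulum, also chosen after its value was seen, did not pass the test (log2 fold change -0.07, edgeR adjusted p = 0.679).

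The other J-domain proteins were split, with 7 of 32 higher and 11 lower in K1 (median -0.24). DNAJC9, a histone chaperone, was lower at a log2 fold change of -2.08 and DNAJB4, a cytosolic relative of DNAJB1, at -1.35, whereas DNAJC1, of the endoplasmic reticulum, was higher at 1.71. Of 9 other small heat shock proteins, 3 were tested, with 1 higher and 2 lower in K1. HSPB11, a component of intraflagellar transport, was lower at -0.50, and the other two, CRYAB and HSPB8, were chosen after their values were seen. CRYAB, the alpha B-crystallin, had 5.59 ± 0.39 FPKM in K1 and 0.03 ± 0.01 FPKM in TPC-1 (log2 fold change 7.42, SE 0.28, edgeR adjusted p = 2.3e-12), and HSPB8, a partner of BAG3, had 0.397 ± 0.145 FPKM in K1 and 9.07 ± 0.936 FPKM in TPC-1 (log2 fold change -4.56, SE 0.24, edgeR adjusted p = 1.35e-10).

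The TRiC chaperonin, the cytosolic counterpart of HSPD1 that folds actin and tubulin, and its partner prefoldin had 9 of 14 genes lower and 2 higher in K1 (median -0.79). CCT2 had 40.6 ± 2.02 FPKM in K1 and 132 ± 17.1 FPKM in TPC-1 (log2 fold change -1.80, SE 0.19), CCT3 changed by -1.57 and the prefoldin subunit VBP1 by -1.85. Among mitochondrial folding and quality control genes, 8 of 20 were lower and 0 higher in K1 by edgeR (10 at an unadjusted p under 0.05, either direction; median -0.29). GRPEL1, the exchange factor of the mitochondrial HSP70, was lower at -1.18, TRAP1, the mitochondrial HSP90, at -0.91, and CLPX, the unfoldase of the ClpXP protease, at -0.89. HSPA9, the mitochondrial HSP70, chosen after its value was seen, was lower at -0.83 (SE 0.13, edgeR adjusted p = 5.31e-05).

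Chaperones of the endoplasmic reticulum did not share the direction, with 5 of 16 higher and 2 lower in K1 (median -0.01). The disulphide isomerases PDIA6 and P4HB were higher at log2 fold changes of 1.07 and 1.00, and DNAJB9, a J-domain partner of HSPA5, at 0.92. Of 8 heat shock factors and regulators, 2 were higher and 2 lower. HSF1, the factor that induces these genes under stress, had 6.23 ± 0.637 FPKM in K1 and 7.26 ± 0.361 FPKM in TPC-1 control libraries and did not pass the test (log2 fold change -0.31, edgeR adjusted p = 0.0529), nor did HSF2 (-0.24, adjusted p = 0.0942); both factors were chosen after their values were seen. HSBP1, which binds HSF1 trimers, was lower at -0.80, VCP, the segregase of ubiquitinated proteins, at -0.67, and the deacetylase SIRT1 was higher at 0.41. Of 14 other genes listed as HSF1 targets, 2 were higher and 8 lower (median -0.70), among them CACYBP 2.82-fold lower, FBXO45 at -1.12 and IER5 at 1.13. That list was drawn up by name, and regulation of its genes by HSF1 was not tested.

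**Figure D5:**
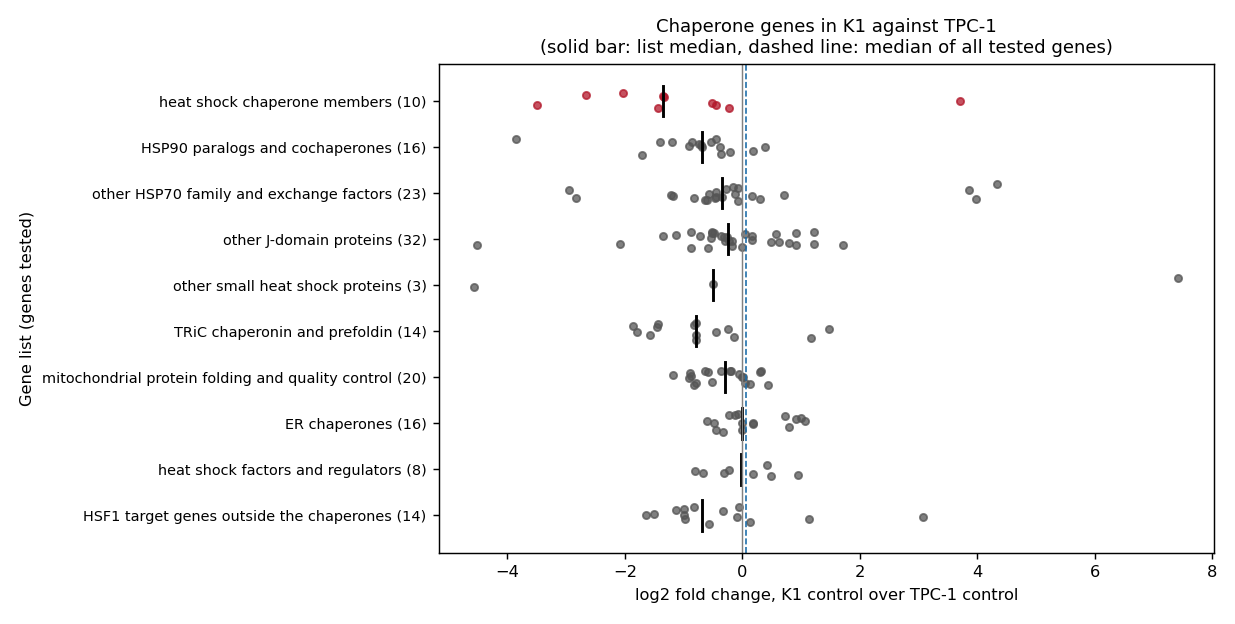
Points give the log2 fold change, K1 control over TPC-1 control (x axis), of the 10 members (red, top) and of the tested genes of the 9 other lists of the chaperone network (grey, number of genes in brackets), with a black bar at each list's median and a dashed line at 0.06, the median of all tested genes. The medians run from -1.34 for the members to -0.01 for the chaperones of the endoplasmic reticulum.

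These lists also hold regulators and HSF1 targets that are not chaperones. With TRIM35 siRNA, 0 of their 134 tested genes passed edgeR's test in K1, in TPC-1, averaged or in the difference. In the same fit, 0 had an unadjusted p under 0.05 in any of these comparisons. DESeq2 called 0 and gave 0 an unadjusted p under 0.05, and limma on log2(FPKM + 0.1) called 0 and gave 1 in TPC-1 (CHAC1) and 2 averaged (CHAC1 and TIMM44) an unadjusted p under 0.05. Without the filter on low counts edgeR called 0, and PFDN6 had an unadjusted p of 0.0419 in the difference (log2 fold change -0.46, SE 0.23, adjusted p = 1). The smallest p-values in TPC-1 belonged to CHAC1, a glutathione-degrading enzyme of the stress response (log2 fold change -0.41, SE 0.22), HYOU1, an HSP110 protein of the endoplasmic reticulum (-0.29, SE 0.19), and FKBP4, an HSP90 immunophilin (-0.24, SE 0.16). In K1 they belonged to CLPP, the peptidase of ClpXP (-0.29, SE 0.20), SEL1L, of the degradation pathway of the endoplasmic reticulum (0.22, SE 0.16), and the J-domain gene DNAJA4 (0.52, SE 0.37). Averaged over the lines they were CHAC1 (-0.30, SE 0.16), the import protein TIMM44 (-0.19, SE 0.11) and DNAJC12 (0.28, SE 0.18), and for the difference HSCB (-0.45, SE 0.29), PFDN6 (-0.44, SE 0.32) and DNAJA4 (0.76, SE 0.59), all with an adjusted p of 1 in edgeR.

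The genes most like each member were found by the mean absolute difference between log2 CPM profiles, each centred on its mean, over the 12 libraries and among 3827 genes outside the lists with a mean of at least 10 FPKM. Such profiles are shaped mainly by the gap between the lines. For HSP90AA1 they were TYMS, a thymidylate synthase (0.104), POP1 (0.115) and CCNA2, cyclin A (0.115), where the median over the candidates was 1.51 and the nearest other member, HSPB1, was at 0.414. For HSP90AB1 they were PITPNB (0.0601), ZW10 (0.0653) and PSMD7 (0.0659), and for HSPB1 they were HMGN5 (0.0913), LDHA (0.107) and UCHL1 (0.116). For HSPA8 they were EIF4EP2 (0.129), GMFB (0.144) and TSR1 (0.165), with HSP90AB1 the nearest member at 0.268. HSPD1 was nearest to PSMB2 (0.0372), NCL (0.0432) and DCAF13 (0.0436), and HSPE1 to RPL35 (0.0638), SOD1 (0.074) and SNRPG (0.0756). Among the members, HSPD1 and HSPE1 were each nearest to the other (0.197), as were HSPH1 and DNAJB1 (0.0916), whereas HSPA1A was at 1.95 from HSPA1B, its nearest member.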

How the data were processed

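RNA was measured in 12 libraries, 3 in each of 4 groups (TRIM35 or negative control siRNA in K1 and in TPC-1, 24 h). TRIzol total RNA was reverse transcribed with random primers, per the labels' protocols. The submitters' processing notes name cutadapt 1.9.1 for trimming and hg38 as the build. Aligner, counter, annotation release and strandedness are each not stated in the sources used here. Whole-number read counts per gene were deposited by the authors. The authors also deposited FPKM values, which equalled the counts divided by exonic size and library total within 0.0051 for 100% of values. The labels give 1 batch and do not say whether replicates were separate cultures, so p-values measure only the spread between these libraries.

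Counts were fitted with edgeR 4.0.16 in R 4.3.3: filterByExpr left 17447 genes and removed at most 0.2% of a library's counts, scaling was by TMM, and a quasi-likelihood model with 1 mean per group (8 residual degrees of freedom) gave each comparison, with Benjamini-Hochberg adjustment over all tested genes and a threshold of 0.05. The fit was tested on simulated data. Alternatives used DESeq2 1.42.0, limma 3.58.1, other scalings and filters, a replicate block, summed HSPA1A and HSPA1B counts, and each library left out. Chi-square values per degree of freedom between replicates were 3.97 to 58.9, so no library was taken as a duplicate. Members and lists were chosen with earlier results of these data known. Named genes were all members, up to 3 called genes per list with the largest change between the control lines, at least 10 FPKM in the higher line and no overlap of libraries, and the 3 list genes with the smallest p in each siRNA comparison; list genes outside this rule are marked where they are named. Sequences came from RefSeq (GRCh38.p14), and exons from GENCODE 29. The level of 1 thyroid marker is not reported here.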

Additional observations from a re-analysis of the deposited data

How the results depend on the processing

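A total of 23 alternatives were run, 12 of which left out 1 library each. In each of them where it could be computed, 0 members and 0 genes of the other lists were called in the siRNA comparisons. The pathway genes called between the control lines numbered 81, 79 to 85 under the other settings and 76 to 88 with a library left out, and the members' median log2 fold change of -1.34 stayed between -1.349 and -1.202 and between -1.45 and -1.26. The members' share of counts with 1 library left out was 0.396 to 0.406% in K1 siRNA, 0.388 to 0.4% in K1 control, 1.4 to 1.83% in TPC-1 siRNA and 1.71 to 2.01% in TPC-1 control libraries. Upper-quartile scaling moved the median of all genes between the lines by 0.143 on the log2 scale. Besides the left-out libraries, the sign of 1 member's value changed: HSPA1B between the lines was 0.36 with HSPA1A counts added, by construction. HSPA1A between the lines was 1.83 on log2(FPKM + 1), where the added 1 exceeds its TPC-1 level.

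The siRNA effects that changed sign when 1 library was left out were all uncalled, and the cause was not tested. In K1 they ranged from -0.016 to 0.0836 for HSP90AA1, -0.0492 to 0.0272 for HSP90AB1, -0.105 to 0.0801 for HSPA1B, -0.0066 to 0.0957 for HSPH1, -0.173 to 0.302 for HSPB1, -0.233 to 0.047 for HSPD1 and -0.448 to 0.0896 for HSPE1. In TPC-1 they ranged from -0.338 to 0.063 for HSP90AA1, -0.42 to 0.0396 for HSP90AB1, -0.709 to 0.0002 for HSPA8, -0.111 to 0.214 for HSPA1A, -0.0299 to 0.0967 for DNAJB1, -0.199 to 0.0035 for HSPD1 and -0.079 to 0.289 for HSPE1. Averaged, they ranged from -0.148 to 0.0513 for HSP90AA1, -0.221 to 0.0078 for HSP90AB1, -0.28 to 0.0737 for HSPA8, -0.101 to 0.0607 for HSPA1A, -0.0185 to 0.095 for HSPA1B, -0.0197 to 0.211 for HSPB1 and -0.188 to 0.0904 for HSPE1. The difference ranged from -0.0233 to 0.38 for HSP90AA1, -0.0636 to 0.399 for HSP90AB1, -0.306 to 0.0192 for HSPA1A, -0.0251 to 0.193 for DNAJB1, -0.307 to 0.183 for HSPB1, -0.157 to 0.138 for HSPD1 and -0.52 to 0.0303 for HSPE1.

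The labels number the replicates of each group, but same-numbered siRNA and control libraries did not deviate together throughout: the correlation of their deviations across genes was -0.413, 0.0714 and -0.439 in K1 and 0.269, 0.0459 and 0.271 in TPC-1. With a replicate block over all groups or within each line, 0 members and 0 genes of the other lists were called in the siRNA comparisons. With the block over all groups, 81 of the other list genes were called between the lines. With the block within each line, the unadjusted p was 0.0136 for HSPA8 in TPC-1 (log2 fold change -0.39, SE 0.13), 0.0154 for HSPA8 in the difference (0.54, SE 0.18) and 0.0366 for HYOU1 in TPC-1 (-0.30, SE 0.12), each with an adjusted p of 1 in edgeR. In TPC-1 every library correlated best with its own number, a hint from the data and not from the design.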
